A study of Mus musculus with 12 samples.

Results

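Genes of the circadian clock, 10 in number, were followed through 12 mouse liver libraries, namely Arntl, Clock, Per1, Per2, Per3, Cry1, Cry2, Dbp, Nr1d1 and Nr1d2. The 10 genes were taken by name from tables of 24553 entries. Per2 and Cry2 are each listed in 2 entries, and the entry with the higher mean was used. All 10 were among the 11671 entries that reached the expression minimum for testing, an FPKM of 1 in at least 3 libraries. FPKM counts sequenced fragments relative to transcript length and library size.

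The libraries form 4 groups of 3. Normal liver came from untreated wild-type (WT) mice and from Setd2 knockout (KO) mice, male and 8 months old. Tumors came from WT and Setd2 KO males that had received the carcinogen diethylnitrosamine (DEN) once, at 25 mg/kg into the peritoneum when 2 weeks old, and were killed after another 8 months. Sample titles name the mutant cKO. The labels do not give the deleted exons, the cell type that lost Setd2 or a Cre driver. They also do not say whether a library is 1 animal or whether a tumor was dissected from its surroundings. They give no hour of collection, light schedule or feeding state, so whether the libraries differ in these was not tested. Setd2 encodes the enzyme that trimethylates lysine 36 of histone H3.

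The clock is a feedback loop of transcription that takes about a day. ARNTL (also called BMAL1) and CLOCK pair up and switch on genes with an E-box, among them the Per and Cry genes, whose proteins then block the pair. The same pair drives Nr1d1 and Nr1d2, which encode the repressors REV-ERB alpha and beta, and these in turn hold down Arntl. Dbp encodes an activator that binds D-box elements and carries the rhythm to downstream genes. In mouse liver Arntl peaks in another part of the day than Nr1d1, Dbp and the Per genes.

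Promoter sequences show which of these elements lie next to a start site, and a few were chosen for printing from those that hold a match. RefSeq windows on GRCm38.p6, 250 bases before to 50 after a start, matched 9 of the 10 genes (13 windows), all but Per2. They were searched on both strands for the E-box CACGTG, the D-box TTANGTAA and the core site AGGTCA of the ROR element, to which the REV-ERB proteins bind. The E-box was found for Per1 and Cry1, and 7.15% of all 32851 promoter windows hold one. The D-box was found for Per3 alone, in 2 places, against 2.32% of all windows. The core site was found for 4 genes (Arntl, Clock, Per1 and Nr1d2), against 16.3% of all windows. Arntl, Clock and Per1 have several windows each, some of them without the core site. Counts of genes and shares of windows are therefore not the same measure. A match of letters is a description and no evidence of binding. The 250 bases before each start are printed 5′ to 3′ with the E-box, D-box or core site in capitals, and no 2 matches overlap. For Per1 (chr11:69098699-69098948, + strand) the E-box begins at position -166 relative to the start and the core site at -137, and the window lies within the gene span that GENCODE gives. For Cry1 (chr10:85185055-85185304, - strand) the E-box begins at -60. For Per3 (chr4:151044666-151044915, - strand) the D-boxes begin at -205 and -158. For Arntl, 30 bases after the later of its starts are shown (chr7:113207531-113207560, + strand), where the core site begins 31 bases after the start.
Per1: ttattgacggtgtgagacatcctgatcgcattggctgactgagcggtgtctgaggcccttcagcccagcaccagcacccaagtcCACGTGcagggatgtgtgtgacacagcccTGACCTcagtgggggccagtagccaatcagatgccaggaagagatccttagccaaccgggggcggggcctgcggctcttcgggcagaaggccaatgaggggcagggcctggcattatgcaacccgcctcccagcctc
Cry1: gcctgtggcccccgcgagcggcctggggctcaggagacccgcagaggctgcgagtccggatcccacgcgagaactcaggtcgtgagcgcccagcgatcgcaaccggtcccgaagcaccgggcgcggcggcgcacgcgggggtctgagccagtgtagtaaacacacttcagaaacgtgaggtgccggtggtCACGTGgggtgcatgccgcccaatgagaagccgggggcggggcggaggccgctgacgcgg
Per3: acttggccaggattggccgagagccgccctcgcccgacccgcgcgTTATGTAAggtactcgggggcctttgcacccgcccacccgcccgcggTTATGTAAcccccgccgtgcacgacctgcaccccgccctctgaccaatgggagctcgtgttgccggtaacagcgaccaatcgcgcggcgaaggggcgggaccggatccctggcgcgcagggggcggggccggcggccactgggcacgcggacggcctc
Arntl: aggcagaaagtAGGTCAgggacggaggtgc

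Summed over all entries, a library's FPKM came to 423498 to 719538, and the number of reads behind them is not given in the sources used here, so no counting error can be stated. Setd2, the targeted gene (chromosome 9, 110532597 to 110618633, GRCm38), was 4.84, 3.84 and 4.70 in WT livers 1 to 3 and 1.66, 1.93 and 1.32 in KO livers, a fall by 1.05 ± 0.14 on the log2 scale (limma adjusted p = 0.0108). In WT tumors it was 4.40, 3.61 and 4.07 and in KO tumors 3.14, 2.18 and 1.90, a difference of -0.57 ± 0.19 that did not pass the test (limma adjusted p = 0.188). Of 10 hepatocyte markers all reached an FPKM of 1 in every library except Serpina1b, which is listed at 0 in WT tumor 1. Log2 differences are of log2(FPKM + 1), which understates the ratios of genes with low FPKM such as Arntl, and in tissue a change in the share of cells cannot be told apart from a change in RNA per cell.

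Of the activating pair, Arntl varied most between libraries. Its FPKM was 1.28, 0.19 and 1.01 in WT livers 1, 2 and 3 and 0.40, 6.10 and 5.71 in KO livers 1, 2 and 3. Tumors gave 0.60, 6.26 and 10.8 in WT and 0.49, 3.94 and 0.79 in KO. All WT livers were therefore low, while every other group held both low and high libraries, and KO liver 1 lay within the range of the WT livers. Clock, its partner, moved little by comparison, from 1.40 in KO tumor 3 to 4.16 in WT liver 3, and its values overlapped between the genotypes in normal liver and in tumors.

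Dbp showed the reverse order. It stood at 43.4, 76.1 and 64.0 in WT livers and at 72.0, 2.45 and 8.45 in KO livers. WT tumors had 117, 42.2 and 1.85 and KO tumors 34.5, 9.98 and 24.8. KO livers 2 and 3, WT tumor 3 and KO tumor 2 were the 4 libraries below an FPKM of 10, and all of them were among the 5 libraries highest in Arntl. WT tumor 2 is the exception, with Arntl at 6.26 and Dbp at 42.2. Across the 12 libraries the highest value exceeded the lowest 63.2-fold for Dbp and 57.0-fold for Arntl, against 2.97-fold for Clock.

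**Figure D1:**
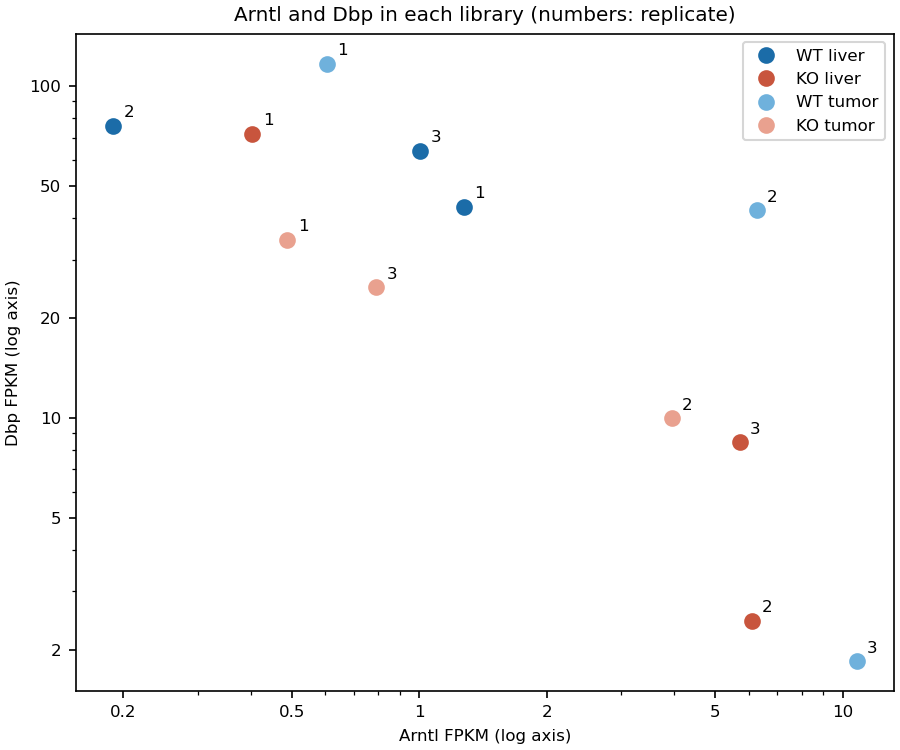
Dbp FPKM (vertical, log axis) against Arntl FPKM (horizontal, log axis), 1 point per library with its replicate number, coloured by group. WT livers sit at the upper left and WT tumor 3 at the lower right (Arntl 10.8, Dbp 1.85), with KO livers 2 and 3 near it and KO liver 1 among the WT livers.

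The REV-ERB genes were highest in WT liver. Nr1d1 was 48.6, 68.5 and 62.8 in WT livers, 44.4, 16.8 and 36.3 in KO livers, 44.7, 29.4 and 7.30 in WT tumors and 13.1, 19.6 and 5.69 in KO tumors. Every WT liver lay above all other libraries for this gene. Nr1d2 was 19.6, 25.1 and 32.1 in WT livers and 22.8, 10.2 and 11.2 in KO livers, so that KO liver 1 again fell among the WT livers. WT tumors gave an Nr1d2 FPKM of 26.6, 13.0 and 3.26, and KO tumors one of 12.03, 3.79 and 10.4.

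Among the repressors, the Per genes differed in how much they moved. Per3 was nearly the same in the WT livers, at 2.47, 2.49 and 2.56, and was 2.58, 0.47 and 0.96 in KO livers. Its spread was wide in tumors, with 11.5, 3.45 and 0.88 in WT and 5.03, 0.49 and 2.61 in KO. Per1 was 8.94, 10.03 and 14.6 in WT livers, 10.8, 6.14 and 1.77 in KO livers, 9.11, 7.82 and 3.02 in WT tumors and 9.81, 6.61 and 11.97 in KO tumors. The lowest libraries for Per1 were KO liver 3 and WT tumor 3, both high in Arntl. Per2, in the entry used, stayed within 1.67 (KO liver 2) and 8.13 (KO tumor 1). In that entry all KO livers (3.08, 1.67 and 2.96) lay below all WT livers (3.70, 3.28 and 3.80). In its second entry all KO livers (1.65, 1.05 and 2.03) lay above all WT livers (0.74, 0.22 and 0.30), so the direction depends on the entry.

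The cryptochromes parted. Cry1 was 1.56, 1.28 and 2.03 in WT livers and 2.26, 8.32 and 5.93 in KO livers, with no overlap. It was 1.83, 10.1 and 13.4 in WT tumors and 3.43, 3.29 and 5.35 in KO tumors, so its high libraries in liver and WT tumors were those high in Arntl. Cry2 held between 5.95 in WT tumor 3 and 17.6 in KO tumor 3, and its 4 groups all overlapped.

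**Figure D2:**
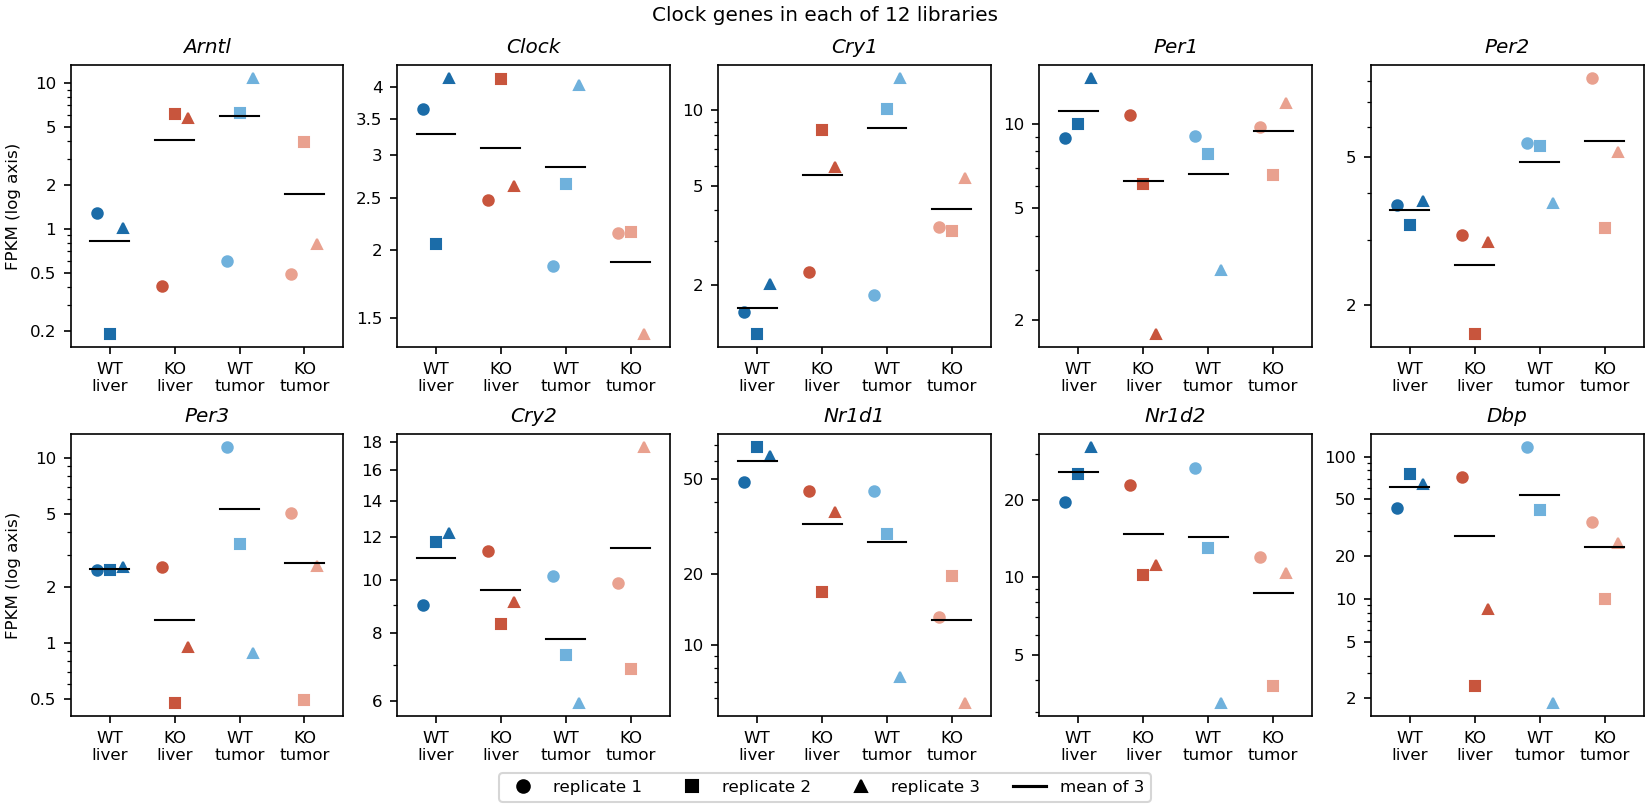
FPKM (log axis, own range in each panel) of the 10 clock genes in each library. Symbols mark the replicate number within a group and bars the mean of 3 libraries; replicate numbers do not link groups. WT livers lie close together for Per3 (2.47 to 2.56) but not for Arntl (0.19 to 1.28). KO livers, WT tumors and KO tumors each contain libraries far apart for Arntl, Per3 and Dbp.

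The order within groups repeated from gene to gene. In all 4 groups the library highest in Arntl was the lowest of its group in Dbp, Nr1d2, Per3 and Cry2, and in 3 of 4 groups it was the lowest in Nr1d1, Per1 and Per2. Clock was highest in the library highest in Arntl in 3 of 4 groups and Cry1 in 2. As a summary of each library, log2(FPKM + 1) of Arntl minus the mean of Nr1d1, Dbp and Per3 was -3.11, -4.48 and -3.61 in WT livers 1 to 3. It was -4.02, 0.66 and -0.40 in KO livers, -4.66, -1.31 and 1.73 in WT tumors and -3.28, -0.49 and -2.25 in KO tumors. KO liver 1, WT tumor 1 and KO tumor 1 thus lay between or beside the WT livers, and the remaining libraries lay above them. Of the 10 genes, KO liver 1 had 6 within the range of the WT livers, KO liver 2 had 1 (Clock) and KO liver 3 had 2 (Clock and Cry2).

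Replicates of a group differed more for most of these genes than for the usual gene. The SD of log2(FPKM + 1) within groups, pooled over the 4 groups, was 1.85 for Dbp, 1.13 for Arntl, 0.91 for Per3, 0.86 for Nr1d2, 0.85 for Nr1d1, 0.77 for Cry1 and 0.69 for Per1. It was 0.39 for Cry2, 0.35 for Per2 and 0.34 for Clock, and the median was 0.81 for the 10 genes and 0.25 for all tested entries. Dbp stood at percentile 99.8 of all tested entries and Clock at 73.3. By group, the median SD of the 10 genes was 0.30 in WT liver, 0.68 in KO liver, 1.27 in WT tumors and 0.71 in KO tumors, beside 0.16, 0.17, 0.19 and 0.31 for all tested entries. In WT liver Arntl stood at percentile 95.4, Dbp at 92.3 and Clock at 91.9, with Per2 at 20.5. Per3 in WT liver was at percentile 1.53, among the least variable entries of that group.

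KO and WT livers that never met the carcinogen were compared first, to see what differs between the genotypes. Hour of collection and feeding state are not given, so their part in these differences was not tested. Cry1 was higher in KO liver, at 5.505 ± 3.05 against 1.62 ± 0.38 (mean ± SD, n = 3), a log2 difference of 1.19 ± 0.36 (SE) that did not pass (adjusted p = 0.0602). Nr1d1 was lower, at 32.5 ± 14.2 against 59.98 ± 10.3 (-0.96 ± 0.34, adjusted p = 0.0866), and Nr1d2 stood at 14.7 ± 6.98 against 25.6 ± 6.27 (-0.82 ± 0.31, adjusted p = 0.103). Dbp had the widest difference, 27.6 ± 38.5 against 61.1 ± 16.5 (-2.18 ± 0.98, 95% interval -4.50 to 0.13, adjusted p = 0.152), and Arntl the largest positive one, 4.07 ± 3.18 against 0.82 ± 0.57 (1.21 ± 0.62, 95% interval -0.24 to 2.66, adjusted p = 0.195). Per2 (-0.39 ± 0.18), Per3 (-0.69 ± 0.30) and Per1 (-0.96 ± 0.49) had an adjusted p of 0.169, 0.139 and 0.197. Clock (-0.056, 95% interval -0.62 to 0.51) and Cry2 (-0.18, 95% interval -0.57 to 0.21) had the smallest differences.

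None of the 10 genes was called by limma at an adjusted p below 0.05 in normal liver, where 18.1% of all tested entries were called (9.33% higher and 8.77% lower in KO). An unadjusted p below 0.05 was found for 3 of the 10 (Cry1, Nr1d1 and Nr1d2) and for 37.6% of all entries. Groups did not overlap for 3 genes (Cry1 higher, Nr1d1 and the Per2 entry used lower), beside 42.6% of all entries (21.9% higher, 20.7% lower). The median difference was -0.54 for the 10 genes and 0.03 for all entries. The outcome turned on KO liver 1. Without it 6 of the 10 were called (16.8% of all entries), namely Dbp (-3.41 ± 0.44, adjusted p = 0.0106), Arntl (1.97 ± 0.28, 0.0129), Cry1 (1.62 ± 0.20, 0.00984), Nr1d1 (-1.23 ± 0.32, 0.0472), Nr1d2 (-1.16 ± 0.21, 0.0219) and Per3 (-1.05 ± 0.16, 0.0141). Leaving out any of the other 5 libraries in turn gave 0 calls, and so did the 8 alternative settings that keep all 6 libraries, of which the filter on a mean FPKM of 5 tests fewer of these genes. KO liver 1 also differed from KO livers 2 and 3 in the summed FPKM of 8 stellate cell and fibroblast markers (74.4 against 120 and 125, with 44.1 to 70.1 in WT livers). Its neutrophil markers summed to 38.8 against 16.5 and 8.09, its B and plasma cell markers to 5.63 against 11.5 and 9.49, its macrophage markers to 138 against 107 and 91.3, its hepatocyte markers to 34375 against 29129 and 27035, and its endothelial markers to 125 against 105 and 91.2. The part of these cells in the result was not tested.

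**Figure D3:**
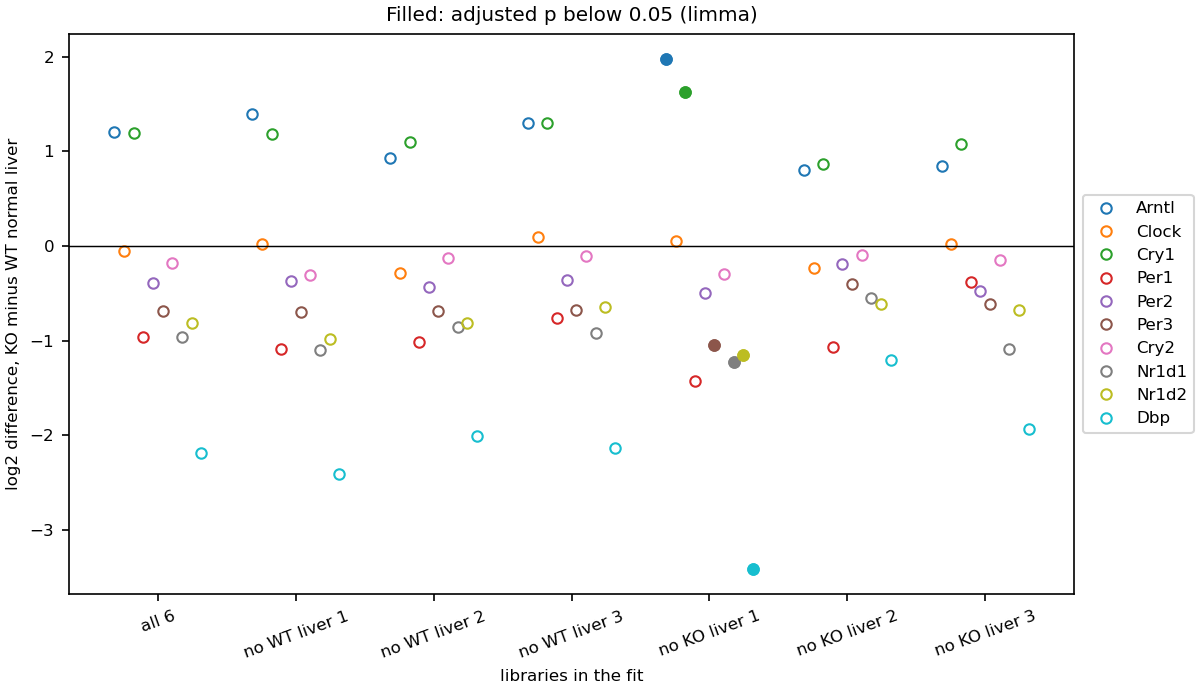
Log2 difference of each clock gene between KO and WT normal liver (vertical) with all 6 libraries and with each library left out in turn (horizontal). Filled points have an adjusted p below 0.05; they appear for 6 genes in the fit without KO liver 1 and nowhere else.

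KO and WT tumors were compared to ask the same of DEN-induced tumors. All 10 genes overlapped between the genotypes, whereas 23.9% of all entries did not (13.8% higher and 10.1% lower in KO). Arntl was 1.74 ± 1.91 in KO and 5.88 ± 5.10 in WT tumors (n = 3, -1.13 ± 0.79, 95% interval -2.99 to 0.74), and Dbp 23.1 ± 12.3 and 53.7 ± 58.5 (-0.18 ± 1.29, 95% interval -3.23 to 2.87). Nr1d1 was 12.8 ± 6.97 and 27.1 ± 18.8 (-0.86 ± 0.68) and Cry1 4.02 ± 1.15 and 8.47 ± 5.98 (-0.64 ± 0.59). With limma 0 of 10 genes were called, beside 0.0771% of all entries (0.0343% higher, 0.0428% lower). An unadjusted p below 0.05 was found for 0 of them and 17.6% of all entries, and adjusted p ran from 0.478 for Clock to 0.957 for Dbp. The intervals are wide enough to hold several-fold differences in either direction for Dbp. Cell markers also stood apart, with summed FPKM of hepatocyte markers of 14583 to 28812 in KO and 39220 to 42495 in WT tumors and of stellate and fibroblast markers of 178 to 271 and 66.5 to 77.4. Neutrophil markers summed to 21.1 to 56.3 in KO and 8.52 to 9.86 in WT tumors, and B and plasma cell markers to 11.7 to 21.5 and 28.3 to 63.4. Macrophage markers overlapped, with sums of 138 to 361 in KO and 53.0 to 173 in WT tumors. Cd14, a receptor gene on the macrophage list, was the marker called between tumors (2.40, limma adjusted p = 0.0306). Of the 7 markers on that list 6 had a positive difference and 1 a negative one (Clec4f, -0.30). The part of these cells in the clock values was not tested.

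Tumor and normal liver were then set against each other within each genotype. The 2 tumor comparisons share their livers and tumors with the comparisons above, so their values are not independent of them. In WT, Nr1d1 was lower in tumors without overlap (27.1 ± 18.8 against 59.98 ± 10.3, n = 3, -1.42 ± 0.57, adjusted p = 0.129). Cry1 was 8.47 ± 5.98 against 1.62 ± 0.38 (1.56 ± 0.56, adjusted p = 0.0988) and Arntl 5.88 ± 5.10 against 0.82 ± 0.57 (1.55 ± 0.69, adjusted p = 0.158). Dbp, at 53.7 ± 58.5 and 61.1 ± 16.5, held the highest and the lowest library of all 12 within the WT tumors (-1.31 ± 1.22). With limma 0 of 10 genes were called, beside 17% of all entries (8.01% higher, 8.96% lower). An unadjusted p below 0.05 was found for 2 (Cry1 and Nr1d1) and for 35.1% of all entries. Nr1d1 was the 1 gene without overlap, beside 42.3% of all entries (18.5% higher, 23.8% lower). The median difference was -0.31 for the 10 genes and -0.04 for all entries.

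WT tumor 1 decided that count. Without it 4 of the 10 were called (18.3% of all entries), which were Cry1 (2.28 ± 0.19, adjusted p = 0.00178), Arntl (2.40 ± 0.33, 0.008), Cry2 (-0.65 ± 0.17, 0.0432) and Nr1d1 (-1.93 ± 0.50, 0.0438). Per3 was then at -0.28 and Clock at 0.035, against 0.43 and -0.16 with it. Summed FPKM of 7 macrophage markers was 173 in WT tumor 1 and 53.0 and 53.7 in WT tumors 2 and 3. The same library had 63.7 for 6 cholangiocyte markers, against 640 and 383, and 108 for 7 endothelial markers, against 73.1 and 62.7. Between the groups, the sum of 6 B and plasma cell markers was 28.3 to 63.4 in WT tumors and 2.84 to 5.72 in WT livers. With all 6 libraries, 3 of 8 stellate and fibroblast markers were called higher, and 1 of 10 hepatocyte markers higher and 3 lower. Of 7 endothelial markers 1 was called higher and 1 lower, and of 5 tested cholangiocyte markers 1 higher. Over all entries 8.01% were called higher and 8.96% lower. The part of these cells in the result was not tested.

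In KO mice, Nr1d1 was 12.8 ± 6.97 in tumors and 32.5 ± 14.2 in normal liver (n = 3, -1.32 ± 0.49, limma adjusted p = 0.11). Per2, in the entry used, was 5.497 ± 2.47 and 2.57 ± 0.78 without overlap (0.82 ± 0.31, limma adjusted p = 0.115). Its second entry went the other way, at 0.26, 0.45 and 0.07 in KO tumors and 1.65, 1.05 and 2.03 in KO livers. Clock was lower in every KO tumor than in every KO liver, at 1.91 ± 0.44 and 3.09 ± 0.92 (-0.48 ± 0.22, adjusted p = 0.166). Arntl had a difference of -0.78 ± 0.71, opposite in sign to that in WT mice, and Cry1 one of -0.27 ± 0.39. Limma called 0 of the 10, beside 14.3% of all entries (9.09% higher, 5.17% lower). An unadjusted p below 0.05 was found for 2 (Nr1d1 and Per2) and for 33.7% of all entries. Groups did not overlap for Per2 (entry used) and Clock, beside 41.1% of all entries (21.3% higher, 19.8% lower). When all 12 libraries shared 1 fit, Per2 was called (adjusted p = 0.0366), as were 3340 of all 11671 entries, against 1664 in the main fit. Cell markers moved in the same comparison. Stellate and fibroblast markers summed to 178 to 271 in KO tumors and 74.4 to 125 in KO livers, and 4 of the 8 were called higher, among them the collagen genes Col1a1 (3.79) and Col3a1 (3.13). Of the macrophage markers 3 of 7 were called higher, among them Cd14 (3.66), and of 5 tested cholangiocyte markers 2, among them Spp1 (3.57). Each list also held 2 markers with a negative difference that was not called. They included Lrat (-0.66) and Dcn (-0.49) of the stellate and fibroblast list and Clec4f (-1.25) and Cd5l (-0.45) of the macrophage list. The medians were 1.36 for stellate and fibroblast, 0.54 for macrophage and 0.06 for cholangiocyte markers. The part of these cells in the clock values was not tested.

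Whether the genotype effect differed between tumor and normal liver was tested as an interaction over all 12 libraries. Cry1 had -1.83 ± 0.76 (adjusted p = 0.186), Arntl -2.33 ± 1.11 (adjusted p = 0.245) and Per1 1.48 ± 0.69 (adjusted p = 0.232). The interaction was -0.32 for Clock and 0.10 for Nr1d1. With limma 0 of 10 genes were called, beside 2.08% of all entries (1.15% higher, 0.934% lower). An unadjusted p below 0.05 was found for 1 (Cry1) and for 22.3% of all entries. Cry1 was called without WT tumor 1 (-2.55, adjusted p = 0.0345), beside 3.17% of all entries in that fit. Rescaling each library to a common sum moved the median of all entries by 0.27 in the WT and 0.38 in the KO tumor comparison, by 0.11 between tumors and by 0.12 in the interaction. Cry1 in WT tumors against liver was 1.92 on that scale, shift included, and was called (adjusted p = 0.048). On the same scale 2068 of all 11671 entries were called in that comparison.

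**Figure D4:**
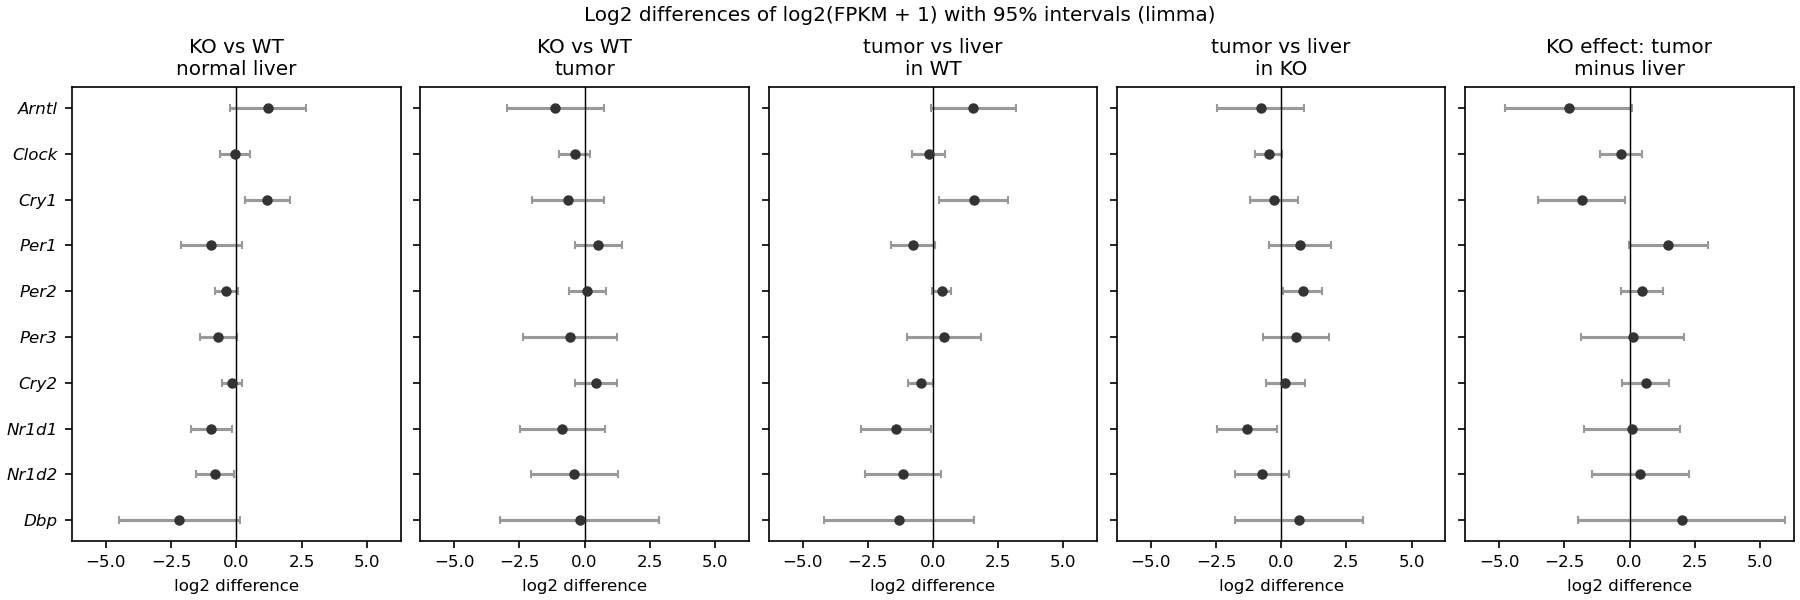
Log2 differences of the 10 clock genes in the 4 comparisons of groups and in the interaction, as points with 95% intervals from limma. Most intervals cross 0, those of Dbp are the widest, and no gene had an adjusted p below 0.05 in any panel.

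Other genes of the clock network were read from a list of 27, of which 25 were tested. In KO against WT normal liver 1 rose and 1 fell, where 9.33% of all entries were called higher and 8.77% lower. Hdac3, the deacetylase through which REV-ERB proteins repress, rose from 19.1 ± 2.66 to 29.2 ± 3.72 (n = 3, 0.59 ± 0.14, adjusted p = 0.0367), and Gsk3b, a kinase of clock proteins, fell from 4.90 to 3.25 (-0.47 ± 0.12, adjusted p = 0.0428). Between tumors 0 were called, beside 0.0771% of all entries, the smallest adjusted p being 0.152 for Hdac3. Tumors of WT mice had 1 called higher and 3 lower than normal liver, beside 8.01% and 8.96% of all entries. Bhlhe40 (84.2 to 31.6, -1.35 ± 0.27) and Bhlhe41 (3.49 to 0.99, -1.26 ± 0.30), repressors of E-box genes, fell there with Gsk3b (-0.43), while Tipin rose (0.49). KO tumors had Csnk1e, a kinase that marks PER proteins, called higher than KO liver (1.09 ± 0.19, adjusted p = 0.0174) and Fbxl21 lower (-0.78 ± 0.19, adjusted p = 0.037), beside 9.09% and 5.17% of all entries. The list's medians in these 4 comparisons were -0.23, 0.03, -0.14 and 0.13, and those of all entries 0.03, 0.02, -0.04 and -0.02.

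By library, several of these genes sorted as Arntl or Dbp did. Npas2, a stand-in for Clock, was 0.20, 0.08 and 0.09 in WT livers, 0.08, 0.97 and 1.94 in KO livers, 0.17, 3.31 and 5.49 in WT tumors and 0.10, 2.97 and 0.05 in KO tumors. Its 5 libraries above 0.9 were the 5 highest in Arntl. Tef, a relative of Dbp, was 31.2 to 37.4 in WT livers and 34.6, 15.1 and 10.9 in KO livers, with 38.7, 16.7 and 7.83 in WT tumors and 25.1, 9.10 and 22.2 in KO tumors. Ciart, a repressor of the ARNTL and CLOCK pair, was 8.77, 10.6 and 18.2 in WT livers, 16.2, 1.64 and 1.41 in KO livers and 8.81, 5.84 and 0.61 in WT tumors. KO liver 1 was thus within the range of the WT livers for Tef and Ciart, and KO livers 2 and 3 were below them. Rora, an activator at ROR elements, ranged from 4.36 to 7.40 over the 12 libraries, and Csnk1d from 19.8 to 26.3.

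**Figure D5:**
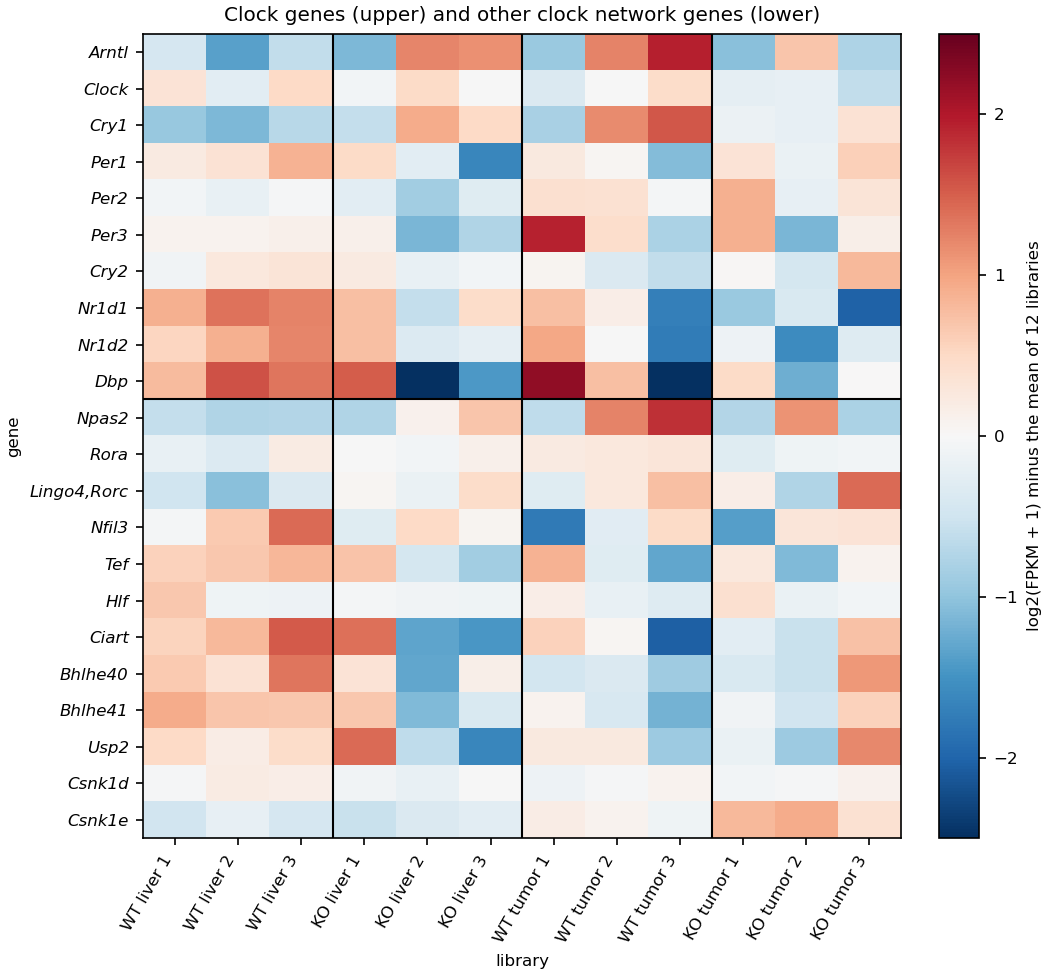
log2(FPKM + 1) minus the mean of the 12 libraries, by gene (rows) and library (columns), for the 10 clock genes and 12 genes of the clock network list, with colours ending at 2.5 in either direction. In KO livers 2 and 3 and WT tumor 3 Arntl and Cry1 are red and Dbp, Tef and Ciart blue. Npas2 is red in KO liver 3 and WT tumor 3 and close to its mean in KO liver 2. In KO tumor 2 Arntl and Npas2 are red while Cry1 is slightly below its mean.

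Patterns like those of Arntl and Dbp were ranked over 10365 tested genes outside the 10 by Pearson's r of log2(FPKM + 1) across the 12 libraries, as a description of extremes chosen from many genes. The libraries share group differences, which enter every r. Among the closest to Arntl were Fgfr4 (0.98), Lonrf3 (0.95), Lgalsl (0.95) and Npas2 (0.92). Fgfr4, a fibroblast growth factor receptor of hepatocytes, was 14.6, 26.1 and 25.3 in KO livers and 15.1, 24.3 and 28.6 in WT tumors, against 15.3 to 17.5 in WT livers. Most opposed to Arntl were Siglece (-0.96), Tef (-0.88), Decr2 (-0.86), Fam76a (-0.86) and Bhlhe41 (-0.85). Closest to Dbp among those genes were Ciart (0.89), Tef (0.88), Slc23a2 (0.84), Bhlhe41 (0.82) and Ralgapa2 (0.82), and among the most opposed were Lonrf3 (-0.90), Lgalsl (-0.84), Invs (-0.84) and Fgfr4 (-0.83). Among the 10 genes themselves, r with Arntl was 0.85 for Cry1 and -0.83 for Dbp, and with Dbp 0.83 for Nr1d2 and 0.80 for Per3.

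Some values need care in reading. The libraries do not keep the strand, so reads where 2 genes overlap on opposite strands cannot be told apart. Nr1d1 (chromosome 11, 98767932 to 98775333) shares 1075 bases with Thra, whose FPKM ranged from 2.96 to 5.93, and Dbp (chromosome 7, 45705088 to 45710203) shares 737 bases with Sphk2, at 5.90 to 17.1, all on GRCm38. Per3 lies within the annotated span of Camta1 (3.05 to 6.21) on the same strand. The second entry of Per2 was 0.74, 0.22 and 0.30 in WT livers and 1.65, 1.05 and 2.03 in KO livers, the opposite direction to the entry used. Tumors gave 0.64, 1.07 and 1.45 in WT and 0.26, 0.45 and 0.07 in KO, so KO tumors against KO livers were opposite as well. The lack of overlap of Per2 therefore holds for the entry used and was not tested for both entries together. How the authors' program divided reads between the entries is not given in the sources used here. The second entry of Cry2 stayed between 0.35 and 1.14.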

How the data were processed

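RNA was measured by sequencing of polyadenylated RNA in 12 libraries with a non-directional kit (labels' protocols). FPKM values were deposited by the authors, 1 table per library, made with TopHat2 2.1.1 and Cufflinks 2.2.1 on mm10, per the submitters' processing notes. The sources used here give no options, annotation or read totals, so the precision of a single value is unknown.

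A repeated name was represented by its entry with the highest mean FPKM. Values were analyzed as log2(FPKM + 1) with limma 3.58.1 in R 4.3.3 (variance trend, two-sided, Benjamini-Hochberg adjustment over all 11671 entries tested, called below 0.05). Each comparison of groups used its own 6 libraries and the interaction all 12. Because the labels do not tie samples to separate animals, p-values reflect only how far these libraries scatter. The fits were tested on simulated data. All 10 genes were named, and of the clock network and liver output lists up to 4 genes with the smallest adjusted p per comparison. Members and lists were chosen with earlier results of these data known. Genes singled out by library (Npas2, Tef, Ciart, Rora and Csnk1d) were picked after their values were seen. A gene of the ranking by likeness is not reported here. Genes were placed by name on GENCODE vM21 (GRCm38). Alternatives were pseudocounts of 0.1 and 5, no filter or a mean FPKM of 5, TPM and median-of-ratios scaling, 1 fit of all libraries, a replicate block and leaving out each library.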

Additional observations from a re-analysis of the deposited data

How the results depend on the processing

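Depth is unknown, so what it limits cannot be stated. Of 725 values of single genes under the alternatives, 683 kept their direction and side of the threshold, 29 changed sign and 13 newly passed. Members called when each library was left out ran from 0 to 6 in KO against WT liver, 0 to 4 in WT tumor against liver and 0 to 1 in the interaction, and 1 was called with TPM scaling (WT tumor against liver) and 1 in the fit of all 12 libraries (KO tumor against liver). Other settings changed sign for Clock in WT tumor against liver (0.069, TPM), Cry1 in KO tumor against liver (0.092, TPM) and Per3 in the interaction (-0.063, pseudocount 5). With libraries left out, genes that changed sign ranged as follows. In KO against WT liver Clock ran from -0.28 to 0.10. Between tumors Per2 ran from -0.19 to 0.37, Per3 from -1.22 to 0.14, Dbp from -1.73 to 0.96 and Nr1d2 from -1.14 to 0.21. In WT tumor against liver Clock ran from -0.38 to 0.035, Per3 from -0.28 to 1.09 and Dbp from -2.45 to 0.24. In KO tumor against liver Cry1 ran from -0.70 to 0.055, Cry2 from -0.18 to 0.44 and Dbp from -0.28 to 1.92. In the interaction Per3 ran from -0.54 to 0.83, Nr1d1 from -0.62 to 0.61 and Nr1d2 from -0.33 to 1.02. The cause was not tested.

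Deviations of same-numbered libraries correlated between -0.28 and 0.35. The highest was that of WT and KO tumor 1 and the next highest was 0.09, so the numbers were not taken to pair samples. Number 1 was nevertheless the lowest of its group in Arntl against Nr1d1, Dbp and Per3 in KO liver, WT tumor and KO tumor. In WT liver it was the highest (-3.11 against -4.48 and -3.61). With the replicate number as a block 0 members were called in each comparison, and over the all tested entries the calls were 153, 0, 1235, 1420 and 114 instead of 2113, 9, 1981, 1664 and 243. Without a filter these counts were 868, 1, 1257, 543 and 56, and with a mean FPKM of 5 they were 1411, 6, 1263, 670 and 133. The fit of all 12 gave 1144, 1017, 1105 and 3340 for the comparisons of groups, TPM 24 between tumors and 115 in the interaction, and median-of-ratios 16 between tumors. Leaving out a library gave 240 to 1964, 0 to 266, 454 to 2134, 129 to 2981 and 7 to 1368.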

Other observations

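Liver genes known to follow the daily rhythm or feeding, a list of 19 that were all tested, varied between libraries as well. In KO against WT normal liver 2 fell and 0 rose with limma, where 8.77% of all tested entries were called lower and 9.33% higher. Por, which passes electrons to cytochrome P450 enzymes, was 224, 288 and 260 in WT livers and 173, 66.3 and 59.9 in KO livers (-1.53 ± 0.38, limma adjusted p = 0.0374), and Tspan4 fell too (-1.35 ± 0.30, limma adjusted p = 0.0286). Alas1, the first enzyme of heme synthesis, was 258, 279 and 245 in WT livers and 186, 62.9 and 38.7 in KO livers (-1.74 ± 0.50, limma adjusted p = 0.0525). Elovl3, a fatty acid elongase, had its higher values in KO, at 119, 62.9 and 107 in WT livers and 134, 506 and 303 in KO livers (1.55 ± 0.47, limma adjusted p = 0.0608). For Por and Alas1, KO liver 1 was the KO library nearest to the WT livers, as it was for Arntl and Dbp.

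In tumors 0 of the 19 were called between genotypes, beside 0.0771% of all entries. Against normal liver, 5 fell in WT tumors (8.96% of all entries were called lower there), among them Por (-1.57), Fkbp5 (-0.95), Pnpla2 (-0.94) and Slc2a2 (-0.99). In KO tumors 2 rose and 1 fell, beside 9.09% and 5.17% of all entries. Fkbp5, a chaperone gene induced by glucocorticoids, was 35.3, 8.36 and 6.59 in KO livers and 76.8, 54.7 and 70.3 in KO tumors (2.30 ± 0.56, limma adjusted p = 0.038). Cyp2a5 rose (1.56 ± 0.32) and Elovl3 fell from 134, 506 and 303 to 0.68, 3.44 and 9.09 (-6.02 ± 0.71, limma adjusted p = 0.00797). Fkbp5 was the gene of this list called in the interaction (3.26 ± 0.64, limma adjusted p = 0.0365), beside 2.08% of all entries. The list's medians in the 4 comparisons of groups were -0.62, 0.12, -0.75 and -0.04.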
